A study of Mus musculus with 7 samples.

Results

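The proteasome is the protease that degrades proteins tagged with ubiquitin, and its genes were followed here as 1 module in whole kidneys of male mice. The module holds the protein-coding genes whose names begin with Psma to Psmg and a number, without the interferon-inducible subunits Psmb8, Psmb9 and Psmb10 and the activator subunits Psme1 and Psme2. By this rule 45 genes were members of 48709 Ensembl genes with counts, and 44 of them were among the 15394 genes expressed well enough to test. Of the 7 libraries, 4 came from mice that lack both Hs3st3a1 and Hs3st3b1 (double knockout, DKO, replicates 1 to 4) and 3 from wild-type mice (WT, replicates 1, 2 and 4). Both targeted genes encode enzymes that add a sulfate group to heparan sulfate, and the study asks what their loss does to kidney and glomerular size. Each library has a number of its own in its title and was treated as 1 animal, although the labels do not say what the number marks. If libraries shared an animal, the p-values would measure technical spread. The sources used here give neither age nor strain nor how the alleles were made.

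The 20S core of the proteasome is a barrel of stacked rings. The outer rings are built of alpha subunits, which gate the entry, and the inner rings of beta subunits, of which Psmb5 cuts after hydrophobic residues, Psmb6 after acidic residues and Psmb7 after basic residues. The 19S cap binds ubiquitin chains, removes them, and uses a ring of ATPases to unfold the substrate and thread it into the core. Chaperones guide the assembly of both, and other activators can replace the cap. In mammals the transcription factor NFE2L1, processed at the endoplasmic reticulum, raises the subunit genes together when proteasome activity falls, through antioxidant response elements in their promoters. Kidney tubule cells reabsorb and degrade large amounts of protein, most of it in lysosomes, and use the proteasome for their own proteins.

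By known function the members were 7 alpha subunits, 3 catalytic and 4 other beta subunits of the core, 6 ATPases, 3 further base subunits and 8 lid subunits of the cap, 7 assembly chaperones, and 3 genes for other activators or an inhibitor. The name rule also took Psma8, a core subunit of the testis, and 3 genes that are not proteasome subunits by their known roles. These were Psmc3ip, a meiotic recombination factor whose name refers to an interaction with the ATPase Psmc3, Psme3ip1, named for an interaction with Psme3, and Psme2b, a gene with 1 exon that resembles Psme2. It left out the cap subunits Adrm1 and Sem1, whose names follow another scheme.

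Promoters, the windows from 250 bases before to 50 bases after the start of a gene, are given for 3 members because they hold, in different positions, letters that match the core of the antioxidant response element (TGACNNNGC). A match describes the sequence and is not a binding site shown here. The sequences are from RefSeq on GRCm38.p6. Psmb5 lies at chr14:54617946-54618245 on the minus strand, Psmb6 at chr11:70525107-70525406 on the plus strand and Psmd12 at chr11:107479278-107479577 on the plus strand. They are written 5′ to 3′ on the gene's own strand, and capitals mark TGACNNNGC, read on either strand, and in Psmd12 also CCGGAAG, a motif of ETS factors.
Psmb5: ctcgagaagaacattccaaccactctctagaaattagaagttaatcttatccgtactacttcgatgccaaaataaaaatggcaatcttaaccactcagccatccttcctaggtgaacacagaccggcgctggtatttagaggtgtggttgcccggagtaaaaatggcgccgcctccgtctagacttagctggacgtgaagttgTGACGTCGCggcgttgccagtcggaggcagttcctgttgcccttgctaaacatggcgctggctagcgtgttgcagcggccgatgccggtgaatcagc
Psmb6: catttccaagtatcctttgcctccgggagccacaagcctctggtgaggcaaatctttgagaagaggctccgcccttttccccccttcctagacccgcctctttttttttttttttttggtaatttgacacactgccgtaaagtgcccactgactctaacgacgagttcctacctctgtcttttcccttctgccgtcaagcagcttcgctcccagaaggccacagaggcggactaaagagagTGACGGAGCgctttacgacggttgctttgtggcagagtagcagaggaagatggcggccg
Psmd12: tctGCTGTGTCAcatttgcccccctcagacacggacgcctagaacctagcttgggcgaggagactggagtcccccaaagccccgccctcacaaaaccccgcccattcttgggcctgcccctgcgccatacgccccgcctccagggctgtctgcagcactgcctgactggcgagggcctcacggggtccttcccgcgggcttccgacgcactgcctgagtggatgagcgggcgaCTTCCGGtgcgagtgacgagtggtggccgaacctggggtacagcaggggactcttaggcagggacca
The match begins 47 bases before the start in Psmb5 and 9 bases before it in Psmb6, both on the strand shown. In Psmd12 it stands on the opposite strand 247 bases before the start, and CCGGAAG stands on the opposite strand 17 bases before it. Of the 45 members, 37 had a promoter in the table. No promoter was found there for Psmb7, Psmb1, Psmb2, Psmc3, Psmd3, Psmd7, Psmg2 and Psma8, whose motifs were not read. TGACNNNGC was found in 6 of the 37 promoters, 16.2%, against 13.99% of the promoters of all 27025 genes in the table and 17.0% of those of tested genes. The 6 were Psmb5, Psmb6, Psmc6, Psmd12, Psmd9 and Psme4. CCGGAAG was found in 16 of 37, 43.2%, against 9.93% of all genes and 18.6% of tested genes, and CCAAT, the motif of NF-Y, in 14 of 37, 37.8%, against 41.1% and 42.2%. All motifs were read on both strands. The median log2 fold change between DKO and WT, described in full further on, was -0.28 over the 6 members with TGACNNNGC and -0.30 over the 31 without it. It was -0.17 over the 16 members with CCGGAAG and -0.33 over the 21 without it, and -0.30 both over the 14 with CCAAT and over the 23 without it. No difference between these medians was tested.

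Each library held between 18330833 and 24259231 counts on genes. The targeted gene Hs3st3a1 had 1, 0, 0 and 3 reads in DKO replicates 1 to 4, against 29, 13 and 12 reads in WT replicates 1, 2 and 4, so it separated the libraries as their labels do. WT replicate 4 stood apart from the other WT libraries. Over all tested genes it was the highest of the 7 libraries for 26.4% and the lowest for 26.5%, more than any other library in both directions, and fold changes are therefore also given without it. Of the kidney markers, the 4 of the proximal tubule summed to 4973 to 5852 CPM in DKO and 3577 to 4112 CPM in WT, and the 2 of the thick ascending limb to 3218 to 5606 CPM in DKO and 4909 to 8239 CPM in WT. The separation in the proximal tubule sum was that of Slc34a1, which made up most of it with 4181 to 5006 CPM in DKO and 2982 to 3333 CPM in WT, while the groups overlapped for Lrp2, Slc5a2 and Aqp1. The thick ascending limb markers did not share a direction, with log2 fold changes of -0.68 for Umod, which made up most of that sum, and 0.31 for Slc12a1. The testis markers Prm1 and Tnp1 had 0 reads in every DKO library and at most 0.0473 CPM, 1 read, in a WT library. In whole tissue, fewer cells of a type and less RNA per cell cannot be told apart, and the part of these marker differences in the results was not tested.

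Proteasome genes took a smaller share of the gene counts in the DKO libraries than in the WT libraries, a difference that was not tested. Their counts were 0.696%, 0.591%, 0.667% and 0.653% of all gene counts in DKO replicates 1 to 4, against 0.736%, 0.769% and 0.935% in WT replicates 1, 2 and 4. The groups did not overlap, and WT replicate 4 was the highest of all. Of the 44 tested members, 34 had a log2 fold change (DKO over WT) below 0 and 10 one above 0. Over all tested genes 46.8% were below 0. The median over the members was -0.30, beside 0.036 over all tested genes. Without WT replicate 4, 39 of the 44 were below 0, beside 46.8% of all genes, and the median was -0.25, beside 0.025.

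No member passed the test. edgeR's quasi-likelihood test with Benjamini-Hochberg adjustment over all genes gave the members adjusted p values of 0.163 to 0.993, and of all 15394 genes it called 0%. At an unadjusted p under 0.05, 19 members were lower in DKO, beside 11.3% of all genes, and 1 was higher, beside 9.86%. Without WT replicate 4 the members at that level were 5 lower, beside 4.45% of all genes, and 0 higher, beside 5.63%. The 5 were Psma7, Psmb6, Psmb7, Psmb4 and Psmg3. The 19 also dropped to 8 without DKO replicate 2 and to 12 without DKO replicate 3. The shares of all genes in these fits were not counted, so the drops cannot be compared with those over all genes. DESeq2 called 6 members lower at an adjusted p under 0.05, beside 2.92% of all genes, and 0 higher, beside 1.44%. They were Psma7, Psmb6, Psmb3, Psmg4, Psmg3 and Psmb1. For 17 members the highest DKO library was below the lowest WT library, beside 9.04% of all genes, and for 1, Psmd2, the lowest DKO library was above the highest WT library, beside 8.34%.

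Libraries of the same group differed among themselves. With each gene's log2 CPM centred on its mean over the 7 libraries, the median over the 44 members was 0.012, -0.26, -0.19 and -0.10 in DKO replicates 1 to 4, against 0.035, 0.17 and 0.27 in WT replicates 1, 2 and 4. DKO replicate 1 lay close to WT replicate 1. DKO replicate 2 was the lowest of the 7 libraries for 29 members, beside 16.3% of all tested genes, and WT replicate 4 the highest for 24 members, beside 26.4%. WT replicate 4 held between 0.651 and 2.24 times the mean CPM of WT replicates 1 and 2, with a median of 1.13, over 1.5 times for 12 members and under 1 for 17.

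**Figure D1:**
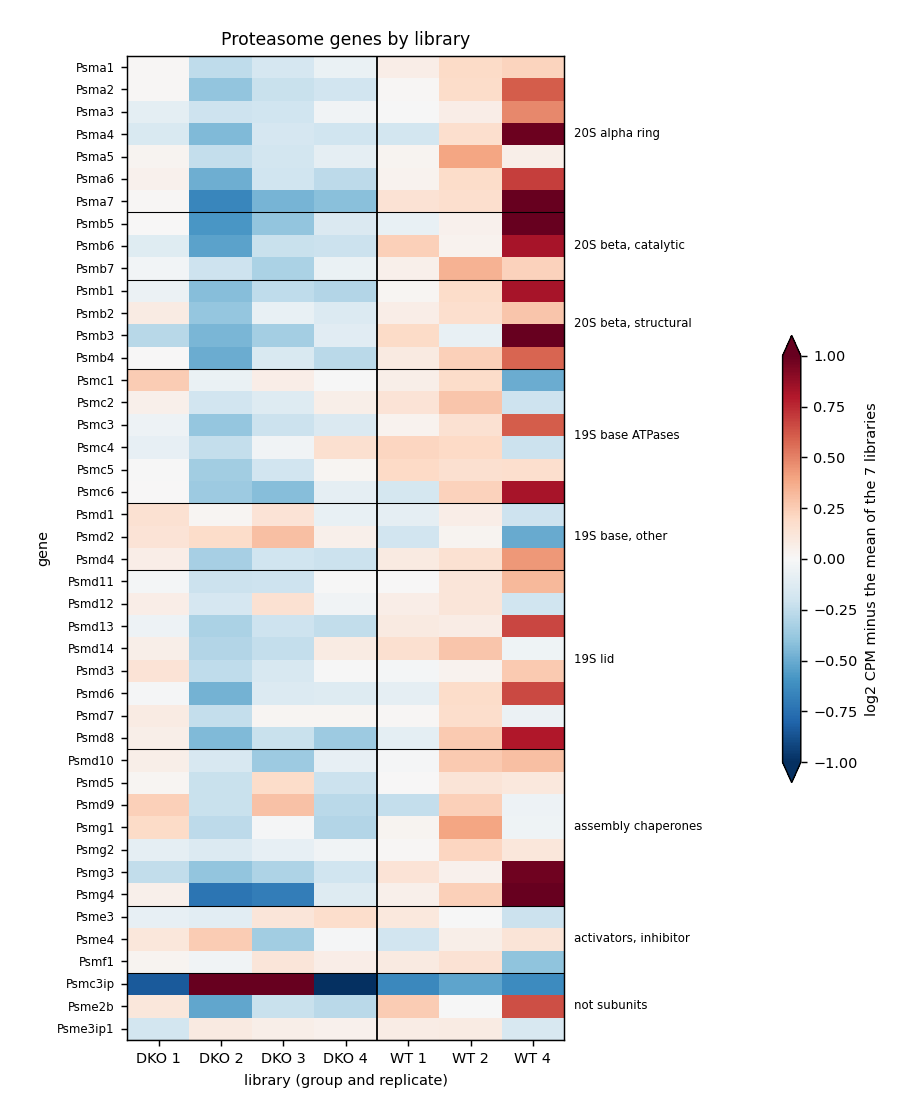
Heat map of the 44 tested members (rows, ordered by role) in the 7 libraries (columns, DKO left of WT); the colour is log2 CPM minus the gene's mean over the libraries, cut at 1 and -1. DKO replicate 2 is blue in most rows, WT replicate 4 is red in every row of the 20S core and mixed in those of the cap, and Psmc3ip is high in DKO replicates 2 and 3.

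In the 20S core all 14 genes had a log2 fold change below 0, between -0.96 and -0.28, with a median of -0.54. At an unadjusted p under 0.05 there were 10 of them, beside 11.3% of all genes lower in DKO. For 9 the groups did not overlap, beside 9.04% of all genes with DKO lower. Without WT replicate 4 all 14 remained below 0, between -0.52 and -0.17, and the median was -0.33. In that fit 1 alpha, 2 catalytic and 1 other beta gene had an unadjusted p under 0.05, beside 4.45% of all genes lower in DKO. The 7 alpha genes had a median of -0.48 (-0.30 without WT replicate 4), the 3 catalytic genes one of -0.67 (-0.36) and the 4 other beta genes one of -0.59 (-0.36).

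Psma7, the alpha subunit with the highest level per length at 188 ± 98.3 CPM per kb of exon (SD, n = 7), had the lowest log2 fold change of the members. It had 533, 336, 383 and 395 CPM in DKO replicates 1 to 4, against 583, 593 and 1221 CPM in WT replicates 1, 2 and 4. The groups did not overlap, although DKO replicate 1 came close to WT replicates 1 and 2, and WT replicate 4 had 2.08 times the mean of the other WT libraries. Means were 411 ± 84.7 CPM in DKO (SD, n = 4) and 799 ± 366 CPM in WT (SD, n = 3). The log2 fold change was -0.96 (SE 0.28), 51.5% of the WT level, with an edgeR adjusted p of 0.163 and a DESeq2 adjusted p of 0.0284. It was -0.52 without WT replicate 4.

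Psmb5, the chymotrypsin-like subunit that proteasome inhibitors used in myeloma bind, was far higher in WT replicate 4 than in the other 6 libraries. It had 111, 74.4, 84.5 and 100.5 CPM in DKO and 106, 115 and 247 CPM in WT. DKO replicate 1 lay between WT replicates 1 and 2, so the groups overlapped. The log2 fold change was -0.75 (SE 0.29, edgeR adjusted p 0.191) with all libraries and -0.25 without WT replicate 4.

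Psmb6, the caspase-like subunit, had the highest level per length of all members, 226 ± 77.1 CPM per kb (SD, n = 7). It had 373, 280, 347 and 350.2 CPM in DKO and 479, 416 and 719 CPM in WT. All DKO libraries were below all WT libraries, with a log2 fold change of -0.67 (SE 0.21, edgeR adjusted p 0.163, DESeq2 adjusted p 0.0382) and of -0.41 without WT replicate 4. Psmb7, the trypsin-like subunit, was counted far lower per length, at 19.5 ± 3.20 CPM per kb. It had 64.5, 56.9, 52.8 and 62.8 CPM in DKO and 68.1, 83.8 and 77.4 CPM in WT. Here too the groups did not overlap, and the log2 fold change was as large without WT replicate 4, at -0.37 (SE 0.15, edgeR adjusted p 0.200) with it and -0.36 without it. Psmb7 overlaps Nek6 on the opposite strand over 11.8% of its exons, and the library kit does not mark the strand. The 3 catalytic subunits are present in equal number in an assembled core, while their counts per kb differed 11.6-fold, on an exon length that merges all annotated transcripts.

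Of the other beta subunits, Psmb3 had 101, 89.2, 96.7 and 113 CPM in DKO and 140, 116 and 257 CPM in WT. The groups were separate by a narrow margin between DKO replicate 4 and WT replicate 2, and the log2 fold change was -0.77 (SE 0.25, edgeR adjusted p 0.164), or -0.36 without WT replicate 4. Psmb2, the other beta subunit with the highest level per length at 174 ± 25.5 CPM per kb, had a log2 fold change of -0.29 (SE 0.16, edgeR adjusted p 0.308), or -0.24 without WT replicate 4, and DKO replicate 1 lay within the WT libraries.

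**Figure D2:**
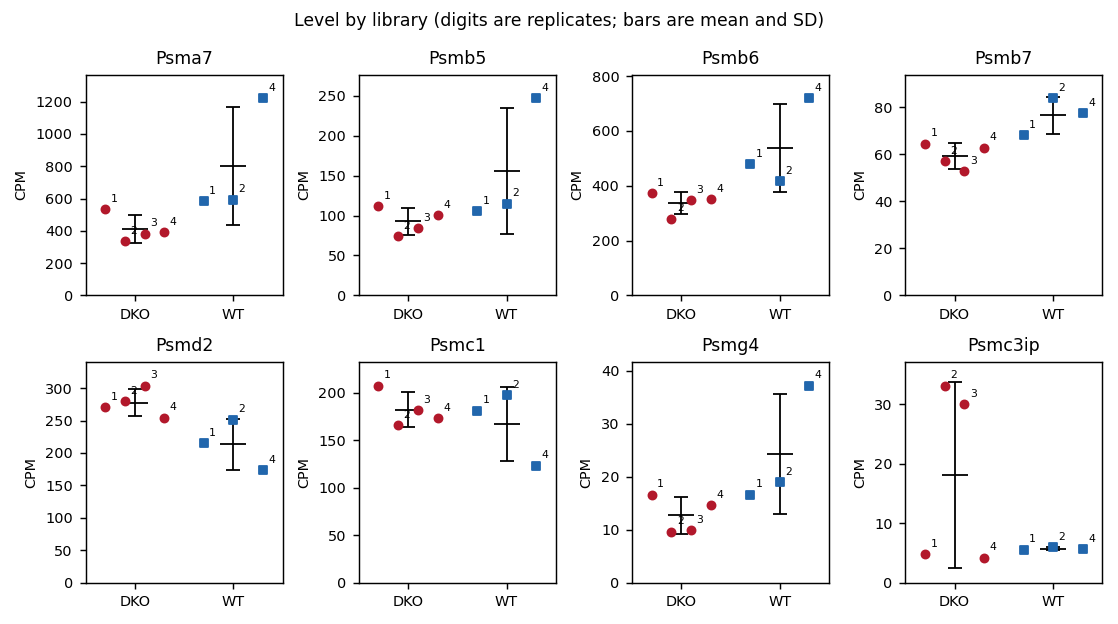
Level in CPM (linear axis from 0) of 8 members in each library, DKO left of WT; digits are replicate numbers, the cross bar is the mean and the error bar the SD of 4 DKO and 3 WT animals. WT replicate 4 is the highest point for Psma7, Psmb5, Psmb6 and Psmg4 and the lowest for Psmd2 and Psmc1, and only DKO replicates 2 and 3 are above 30 CPM for Psmc3ip.

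In the 19S cap 13 of 17 genes had a log2 fold change below 0, with a median of -0.23. At an unadjusted p under 0.05, 6 were lower in DKO, beside 11.3% of all genes, and 1 higher, beside 9.86%. For 5 all DKO libraries were below all WT libraries, beside 9.04% of all genes. Without WT replicate 4, 15 of 17 were below 0, and the median was -0.25. In that fit 0 ATPases, 0 other base genes and 0 lid genes had an unadjusted p under 0.05. Over all genes 4.45% were lower in DKO at that level and 5.63% higher. The median centred log2 CPM of the core genes minus that of the cap genes was -0.051, -0.18, -0.053 and -0.16 in DKO replicates 1 to 4, against 0.0056, 0.018 and 0.48 in WT replicates 1, 2 and 4. The groups did not overlap, with or without WT replicate 4, which lay far above the other WT libraries. The distance between core and cap in the comparison of all libraries, -0.54 against -0.23, was -0.33 against -0.25 without that library, and was not tested. Core genes are shorter, with a median longest transcript of 1220 nt beside 1983 nt for the cap, and median merged exons of 2335 and 2820 nt. Over all genes fold change moved with length, as described further on, and the part of length in this distance was not tested.

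Among the ATPases of the base, which unfold substrates, 5 of 6 were below 0 with a median of -0.22 (-0.26 without WT replicate 4). Psmc3 had 334, 264, 298 and 313 CPM in DKO and 354, 384 and 525 CPM in WT, with no overlap, a log2 fold change of -0.48 (SE 0.18, edgeR adjusted p 0.189) and one of -0.29 without WT replicate 4. It overlaps Slc39a13 on the opposite strand over 8.25% of its exons. Psmc5, the ATPase with the highest level per length at 222 ± 30.1 CPM per kb, had 305, 242, 269 and 310.4 CPM in DKO and 353, 342 and 346 CPM in WT. All DKO libraries (282 ± 32.4 CPM, SD, n = 4) lay below its 3 WT libraries (347 ± 5.38 CPM, SD, n = 3). Its log2 fold change was -0.30 (SE 0.16, edgeR adjusted p 0.285) with WT replicate 4, -0.31 without it and -0.069 with the trend of exon length and GC content removed, described further on. Psmc1 had 208, 166, 182 and 173 CPM in DKO and 181, 198 and 124 CPM in WT. It was the ATPase above 0, at 0.12 (SE 0.19, edgeR adjusted p 0.730), and turned to -0.060 without WT replicate 4, the lowest library for this gene.

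The 3 other base subunits did not share a direction. Psmd2, a scaffold that receives substrate shuttles and binds the deubiquitinase Usp14, was the member whose DKO libraries all lay above the WT libraries. It had 271, 280, 304 and 255 CPM in DKO, against 216, 252 and 173 CPM in WT. DKO replicate 4 and WT replicate 2 were nearly level, and the log2 fold change was 0.38 (SE 0.17, edgeR adjusted p 0.237), or 0.24 without WT replicate 4. Psmd1, the related scaffold, had a log2 fold change of 0.14 (SE 0.15, edgeR adjusted p 0.617), or 0.070 without WT replicate 4, with overlapping groups, at 196 ± 14.5 CPM in DKO (SD, n = 4) and 179 ± 17.1 CPM in WT (SD, n = 3). Psmd4, a ubiquitin receptor, had 168, 127, 139 and 138 CPM in DKO and 171, 178 and 216 CPM in WT. DKO replicate 1 reached nearly to WT replicate 1, and the log2 fold change was -0.40 (SE 0.16, edgeR adjusted p 0.205), or -0.29 without WT replicate 4.

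Of the 8 lid genes 7 were below 0, with a median of -0.25 (-0.20 without WT replicate 4). Psmd13, a structural lid subunit, had 135, 112, 121 and 118 CPM in DKO and 149, 147 and 222 CPM in WT. The groups did not overlap, and the log2 fold change was -0.51 (SE 0.18, edgeR adjusted p 0.174), or -0.29 without WT replicate 4. It overlaps Sirt3 on the opposite strand over 10.1% of its exons. Psmd8, the lid subunit with the highest level per length at 102 ± 34.0 CPM per kb, had 310, 220, 256 and 232 CPM in DKO and 278, 358 and 521 CPM in WT. DKO replicate 1 exceeded WT replicate 1, and the log2 fold change was -0.60 (SE 0.22, edgeR adjusted p 0.182), or -0.32 without WT replicate 4. Psmd14, the lid deubiquitinase that cuts ubiquitin chains off the substrate, was at 130 ± 17.5 CPM in DKO (SD, n = 4) and 152 ± 17.2 CPM in WT (SD, n = 3), a log2 fold change of -0.23 (SE 0.16, edgeR adjusted p 0.432), or -0.31 without WT replicate 4.

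**Figure D3:**
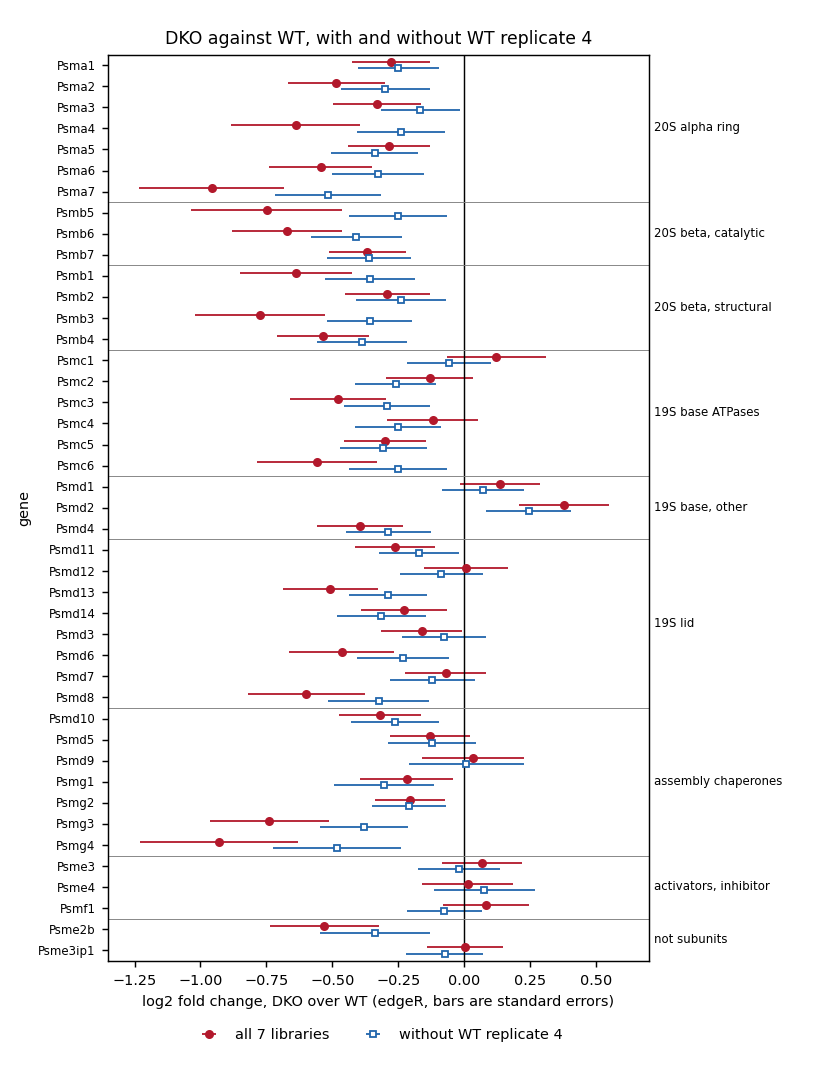
Log2 fold change (DKO over WT) of 43 tested members by role, from edgeR with all 7 libraries (filled circles) and without WT replicate 4 (open squares), with bars for 1 standard error; Psmc3ip at 1.65 is off the scale and not drawn. All 14 core genes are left of 0 in both fits, and the open squares of most of them lie closer to 0, while several cap genes move little or move left.

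Among the 7 assembly chaperones 6 were below 0, with a median of -0.22 (-0.26 without WT replicate 4). Psmg4, part of a complex that helps build the alpha ring, had 16.6, 9.67, 9.94 and 14.7 CPM in DKO and 16.7, 18.95 and 37.2 CPM in WT. DKO replicate 1 and WT replicate 1 were almost equal, and WT replicate 4 was the highest, with a log2 fold change of -0.93 (SE 0.30, edgeR adjusted p 0.164, DESeq2 adjusted p 0.0463) and one of -0.48 without that library. Psmg3, its partner, had 9.99, 8.98, 9.53 and 10.3 CPM in DKO and 13.03, 12.2 and 23.3 CPM in WT. All DKO libraries lay close together below all WT libraries, and the log2 fold change was -0.74 (SE 0.23, edgeR adjusted p 0.163, DESeq2 adjusted p 0.0499), or -0.38 without WT replicate 4. Psmd10, a chaperone of the ATPase ring also known as gankyrin, had the highest level per length of the chaperones, 45.0 ± 7.23 CPM per kb (SD, n = 7), and a log2 fold change of -0.32 (SE 0.16, edgeR adjusted p 0.262), or -0.26 without WT replicate 4, with overlapping groups.

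The activators and the inhibitor had log2 fold changes of 0.013 to 0.082. Psme3, the nuclear activator PA28 gamma, was at 30.9 ± 3.04 CPM in DKO (SD, n = 4) and 29.4 ± 3.28 CPM in WT (SD, n = 3), with a log2 fold change of 0.068 (SE 0.15, edgeR adjusted p 0.820), which was -0.020 without WT replicate 4. Psmf1, an inhibitor that binds the core, was at 39.4 ± 1.77 CPM in DKO and 37.2 ± 7.31 CPM in WT, with a log2 fold change of 0.082 (SE 0.16, edgeR adjusted p 0.796) and one of -0.075 without WT replicate 4. The spread of Psmf1 in WT came from replicate 4, which held 0.696 times the mean of the other WT libraries. Psme4, the activator PA200, had a log2 fold change of 0.013 (SE 0.17, edgeR adjusted p 0.974), 0.075 without WT replicate 4 and -0.17 with the trend of length and GC content removed.

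Psma8, which replaces Psma7 in the cores of male germ cells, was the member too low to test. It had 8, 9, 0 and 4 reads in DKO replicates 1 to 4 and 6, 10 and 13 reads in WT replicates 1, 2 and 4, at most 0.615 CPM. The 0 reads in DKO replicate 3 allow up to 0.154 CPM, counting error only.

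Psmc3ip had the largest log2 fold change of the members, 1.65 (SE 0.83, edgeR adjusted p 0.296), or 1.63 without WT replicate 4, and its own pattern across libraries. It had 4.84, 33.1, 30.0 and 4.24 CPM in DKO replicates 1 to 4, against 5.55, 6.03 and 5.63 CPM in WT replicates 1, 2 and 4. DKO replicates 2 and 3 were high, and DKO replicates 1 and 4 lay below all WT libraries. This was 110, 631, 586 and 104 reads in DKO and 107, 114 and 119 reads in WT. The gene (ENSMUSG00000019303, chromosome 11, positions 101091823 to 101095436 on GRCm38, minus strand, 6 merged exons) shares 385 nt, 21.2% of its exons, with Mlx on the opposite strand. Mlx, a partner of carbohydrate-responsive transcription factors, had 64.6, 65.8, 51.1 and 61.2 CPM in DKO and 72.2, 78.9 and 96.4 CPM in WT, and so was not high in DKO replicates 2 and 3. The 10 tested genes within 120 kb of Psmc3ip had log2 fold changes of -0.44, for Mlx, to 0.56, for Tubg2. Psmc3ip lies 36.6 Mb from Hs3st3a1 on the same chromosome. The source of these reads was not tested.

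Psme2b had 12.9, 8.30, 10.2 and 9.88 CPM in DKO and 14.2, 11.9 and 18.6 CPM in WT, and the groups overlapped. The log2 fold change was -0.53 (SE 0.21, edgeR adjusted p 0.196), or -0.34 without WT replicate 4. Its sequence resembles Psme2, so reads may have been split between them by the authors' counting. Of the members, 13 of 45 had a pseudogene with at least 90% identity over at least 300 nt. Reads on such pseudogenes were over 5% of the member's own reads for Psma5, 13.01%, and Psma3, 10.2%, whose counts are therefore uncertain.

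Members lay on many chromosomes, and the 10 on chromosome 11, which carries both targeted genes, are shown beside the rest. Of those 10, 6 had a log2 fold change below 0, with a median of -0.21, and of the 34 tested members on other chromosomes 28 did, with a median of -0.33. The nearest to Hs3st3a1 was Psmb6, at 6.003 Mb.

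Transcripts of these genes are short, and in these libraries fold change moved with exon length over all genes. The median log2 fold change of all tested genes was -0.40 in the decile of genes with the shortest exons (57 to 1293 nt, merged over transcripts), and 0.30 in the decile with the longest (9419 nt or more). Without WT replicate 4 these medians were -0.27 and 0.29. The shortest decile was highest in WT replicate 4 and lowest in DKO replicates 2 and 3, while DKO replicate 1 was nearly flat. The members had a median exon length of 2814 nt, beside 4008 nt over all tested genes, and the median of the log2 fold changes that all genes of their length deciles had was -0.047. The members lay below this: 33 of 44 were under the median of their own decile, by a median of -0.24 on the log2 scale. Without WT replicate 4 it was 37 of 44, by a median of -0.16.

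The median difference from genes of like length, in deciles of merged exon length, was -0.33 for the 7 alpha genes. It was -0.37 for the 3 catalytic genes and -0.47 for the 4 other beta genes. The alpha genes had a median of 2952 nt merged but 1239 nt by longest transcript, beside 4008 and 3105 nt over all tested genes. In the decile of longest transcript from 1086 to 1668 nt, the median log2 fold change of all genes was -0.25. Differences by role were not computed on that length. The difference on merged exon length was -0.35 for the lid genes, -0.15 for the ATPases and -0.18 for the chaperones. For the 3 other base genes it was -0.078, for the activators and inhibitor -0.082, and for the 3 genes that are not subunits 0.0041. No difference between the roles was tested. With the trend of exon length and GC content removed from every library, 37 of 44 members were below 0, beside 51.1% of all genes, and their median was -0.24. In that fit 13 members were lower at an unadjusted p under 0.05, beside 9.94% of all genes, and 0 higher, beside 6.12%. Psmb2, Psmd10 and Psmc5, which have short exons, had log2 fold changes of -0.024, -0.026 and -0.069 with the trend removed, where Psma7 was at -0.98 and Psmb6 at -0.49. The trend was fitted on merged exon length, 3071 nt for Psma7. By longest transcript Psma7, at 1515 nt, was close to Psmd10, at 1430 nt, and Psmc5, at 1394 nt. Among other members described above, Psmb5 was at -0.44, Psmg4 at -0.59, Psmd14 at -0.14 and Psme2b at -0.21, and 7 of the 44 changed sign, Psmd1, Psmd7, Psmd9, Psmg1, Psme4, Psmf1 and Psme3ip1. Within the module the Spearman correlation of log2 fold change with exon length was 0.34 over 44 genes, which share all 7 libraries, beside 0.40 over all tested genes. Without Psmc3ip the module was at 0.40. With the length of the longest transcript the module was at 0.47, or 0.53 without Psmc3ip, beside 0.43 over all tested genes. The part of exon length in the members' differences was not tested beyond this.

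**Figure D4:**
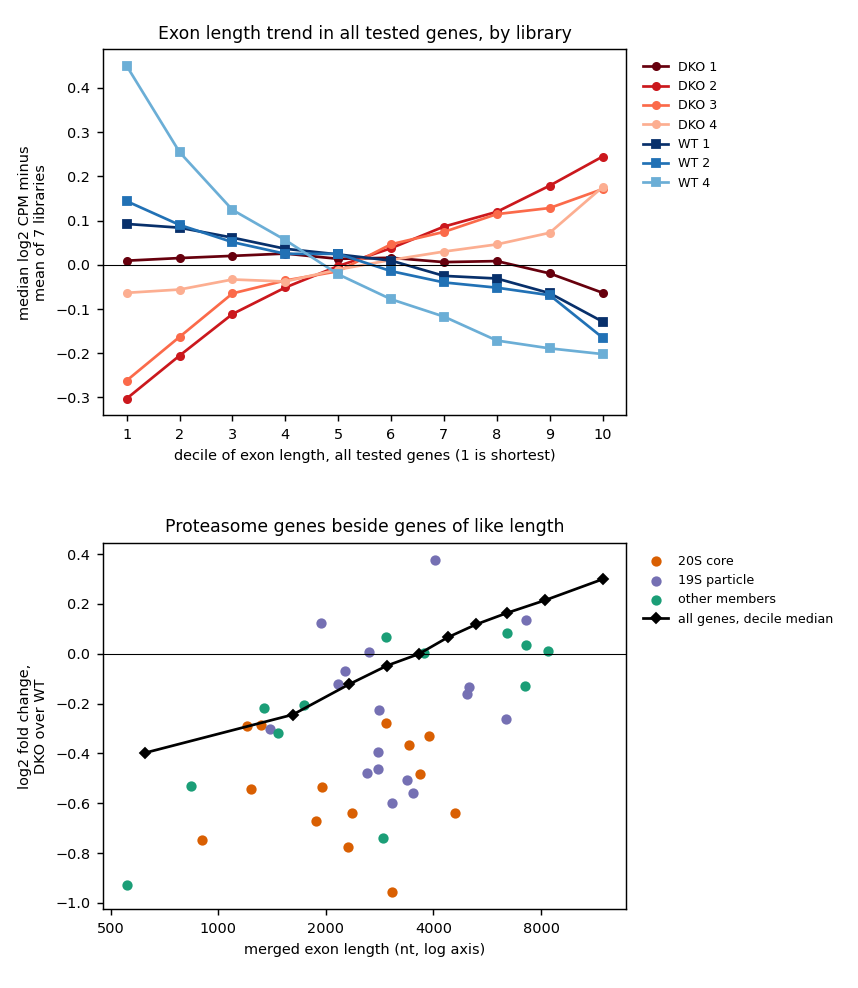
Top, median log2 CPM minus the gene's mean over the 7 libraries, for all tested genes in deciles of exon length (1 is shortest), 1 line per library with DKO listed before WT; bottom, log2 fold change (DKO over WT) of the 43 members without Psmc3ip against exon length (log axis), with the median of all genes in each decile as a black line. WT replicate 4 runs from high at short genes to low at long genes and DKO replicates 2 and 3 run the opposite way; most core genes lie below the black line.

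Other complexes of the same kind were set beside the module. The 38 subunits of respiratory complex I all had log2 fold changes below 0, with a median of -0.55 (-0.35 without WT replicate 4), and 75 of 77 mitochondrial ribosomal proteins did, with a median of -0.47 (-0.33). The COP9 signalosome, which is built like the 19S lid and removes NEDD8 from ubiquitin ligases, had 9 of 9 below 0 and a median of -0.23 (-0.17). For the cytosolic chaperonin CCT it was 6 of 8, with a median of -0.081 (-0.22). Gps1, the COP9 subunit with the smallest p, had a log2 fold change of -0.39 (SE 0.15, edgeR adjusted p 0.195), and Cops6, the most abundant, one of -0.23 (SE 0.17, edgeR adjusted p 0.454). In CCT, Cct5 had the smallest p, at -0.54 (SE 0.23, edgeR adjusted p 0.210), or -0.24 without WT replicate 4, and Cct7, the most abundant, was at -0.081 (SE 0.14, edgeR adjusted p 0.769). The median exon length was 1532 nt for complex I, 2533 nt for the mitochondrial ribosomal proteins, 3549 nt for COP9 and 3910.5 nt for CCT, beside 2814 nt for the module. With the trend of exon length and GC content removed, their median log2 fold changes were -0.31, -0.35, -0.20 and -0.11, in that order, beside -0.24 for the module. No difference between the complexes was tested.

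The inducible subunits, which replace the catalytic ones under interferon gamma, and the activator genes Psme1 and Psme2 were on the same side of 0. All 5 had a log2 fold change below 0, with a median of -0.52 (-0.37 without WT replicate 4), and 4 had an unadjusted p under 0.05, beside 11.3% of all genes lower in DKO. Psmb9 had 10.3, 12.3, 10.3 and 10.3 CPM in DKO and 16.3, 13.5 and 28.7 CPM in WT, with no overlap, a log2 fold change of -0.85 (SE 0.24, edgeR adjusted p 0.163, DESeq2 adjusted p 0.0322) and one of -0.47 without WT replicate 4. Psme2, the most abundant of the 5, had 99.995, 79.9, 94.6 and 88.2 CPM in DKO and 117, 118 and 157 CPM in WT, again with no overlap and a log2 fold change of -0.52 (SE 0.16, edgeR adjusted p 0.163, DESeq2 adjusted p 0.0443), or -0.37 without WT replicate 4. The 4 leukocyte markers summed to 18.6 to 47.2 CPM in DKO and 35.6 to 55.8 CPM in WT. Their log2 fold changes were -0.81 for C1qa, whose groups did not overlap, -0.30 for Adgre1, -0.25 for Ptprc and -0.055 for Cd68. The 4 T cell markers summed to 5.59 to 8.82 CPM in DKO and 6.78 to 11.2 CPM in WT. They did not share a direction, with -1.41 for Cd3g, whose groups did not overlap, -1.68 for Cd3d and 0.16 for Trac. Cd3g and Cd3d were low, at most 2.84 and 3.27 CPM, and Cd3e was too low to test. The part of such cells in the inducible genes was not tested.

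The ratio of each inducible to its constitutive catalytic subunit differed between the groups by less than the spread between animals. Per kb of exon, Psmb8 was at 2.82% ± 0.599 of Psmb5 in DKO and 2.68% ± 1.32 in WT, with an exact two-sided permutation p of 0.657 (SD, n = 4 and n = 3). Psmb9 was at 1.67% ± 0.385 of Psmb6 in DKO and 1.82% ± 0.200 in WT, with an exact permutation p of 0.457. Psmb10 was at 64.3% ± 10.99 of Psmb7 in DKO and 65.8% ± 19.8 in WT, with an exact permutation p of 1. Adjusted over the 3 ratios these were 0.986, 0.986 and 1, and the smallest p that 35 splits can give is 0.0286.

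Among parts and partners of the proteasome with other names, 5 of 10 tested genes were above 0, or 2 with the trend of length and GC content removed, with a median log2 fold change of -0.15 (-0.063 without WT replicate 4, -0.19 with the trend removed). Pomp, the maturation factor that brings beta subunits onto the alpha ring, had 227, 189, 202 and 226 CPM in DKO and 316, 312 and 301 CPM in WT. The WT libraries agreed closely here, replicate 4 included, and every DKO library was lower. The log2 fold change was -0.55 (SE 0.15, edgeR adjusted p 0.163, DESeq2 adjusted p 0.0155), and -0.58 without WT replicate 4. Of the ubiquitin genes and E1 enzymes 4 of 6 were below 0, with a median of -0.21 (-0.25 without WT replicate 4). Ubb, a polyubiquitin gene and the most abundant of them, had 803, 645, 585 and 691 CPM in DKO and 851, 917 and 905 CPM in WT, with no overlap and a log2 fold change of -0.39 (SE 0.17, edgeR adjusted p 0.223), -0.38 without WT replicate 4 and -0.22 with the trend removed. Rps27a, which encodes ubiquitin fused to a ribosomal protein, had a log2 fold change of -1.31 (SE 0.41, edgeR adjusted p 0.164), or -0.53 without WT replicate 4, which held 239 CPM beside 67.6 and 83.4 CPM in WT replicates 1 and 2.

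Genes that deliver substrates or control proteasome transcription lay mostly above 0. All 6 ubiquitin shuttle genes had a log2 fold change above 0, beside 53.2% of all tested genes, or 4 of 6 without WT replicate 4. Their median was 0.23 (0.11 without WT replicate 4). Of the 6, 0 had an unadjusted p under 0.05, beside 9.86% of all genes higher in DKO. A list of 13 genes held Nfe2l1, genes of its processing, the small Maf genes Mafg, Mafk and Maff, and also Nfe2l2 and Keap1. Of these 12 were above 0, beside 53.2% of all tested genes, with a median of 0.24. Without WT replicate 4 it was 11, beside 53.2%, with a median of 0.13. Higher in DKO at an unadjusted p under 0.05 were 2 of the 13, Mafg and Mafk, beside 9.86% of all genes. These genes have longer exons, with a median of 4851 nt, and with the length and GC trend removed 10 of 13 were above 0, beside 48.9% of all genes, and their median was 0.088. Ddi2, the protease that cuts NFE2L1 into its active form and also a shuttle, had 144, 322, 204 and 174 CPM in DKO and 93.1, 180.3 and 46.8 CPM in WT. The groups overlapped, and the log2 fold change was 0.98 (SE 0.44, edgeR adjusted p 0.241), or 0.62 without WT replicate 4. Mafk, a small Maf protein that pairs with NFE2L1 on the response element, had 15.6, 17.4, 14.3 and 14.98 CPM in DKO and 10.2, 13.6 and 8.14 CPM in WT. Its groups did not overlap, and the log2 fold change was 0.55 (SE 0.20, edgeR adjusted p 0.175), or 0.39 without WT replicate 4. Nfe2l1 itself had 66.4, 76.8, 72.4 and 77.2 CPM in DKO and 66.0, 63.0 and 56.0 CPM in WT, with no overlap and a log2 fold change of 0.25 (SE 0.14, edgeR adjusted p 0.324), 0.18 without WT replicate 4 and 0.11 with the trend removed.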

How the data were processed

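RNA was sequenced from whole kidneys of 4 DKO and 3 WT male mice with an unstranded tagmentation kit, per the labels' protocols. Reads were aligned with STAR 2.5.2a, per the submitters' processing notes, which list GRCm38 (mm10) and also GRCh38 without a role. The sources used here name no read counter, annotation release or strand setting. The authors deposited raw read counts per gene, which were used for every value, and a TMM-scaled signal table (CPM), used only for gene names and biotypes. The 24 rows that are no Ensembl gene held at most 0.000697% of a library's counts and were left out.

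Members and gene lists were chosen with earlier results of these data known. Genes were kept with edgeR's filterByExpr (minimum count 10, minimum total count 15) and tested by edgeR 4.0.16 in R 4.3.3 (robust quasi-likelihood F test, TMM, two-sided), with Benjamini-Hochberg adjustment over all tested genes and a threshold of 0.05. Standard errors were derived from F. CPM are raw counts over TMM-scaled library sizes. Log2 CPM used a prior count of 2. Alternatives were DESeq2 1.42.0, limma-voom 3.58.1, RLE size factors, no filter, the replicate number as a block, leaving out each library, and removal of a spline (5 degrees of freedom) of exon length and GC content from each library. Exon length and positions came from GENCODE M21 on GRCm38. The tests were checked on simulated counts. Sequences like those of members were searched with blastn 2.17.0. Named members were the catalytic subunits, the 4 highest and 4 lowest fold changes, the 4 smallest p, and from each role the highest level per kb and the smallest p; of each other list, the smallest p and the highest CPM. Psmd14, Psme4, Nfe2l1, Mlx and Tubg2 were named after their values were seen. Intervals and limits cover counting error only, and no molecular identifiers were used.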

Additional observations from a re-analysis of the deposited data

Results flagged for a closer look

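Psmb9, the inducible partner of Psmb6, had 12.3 CPM in DKO replicate 2, apart from the other DKO libraries, which lay close together, the lowest at 10.3 CPM. The gap was large only against a narrow range. Among 33 genes examined in this way this was the 1 result of its kind, and chance alone sets off about 1 in 20 such groups of 4.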

How the results depend on the processing

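Over the tested members the median log2 fold change stayed between -0.36 and -0.24 and the number below 0 between 34 and 39 of 44, over the other tools, RLE scaling, no filter, the block, trend removal and leaving out each library. DESeq2 called 672 genes and 6 members, edgeR without the low-count filter 66 genes and 0 members, and edgeR 0 to 7 genes and 0 members when a library was left out. At an unadjusted p under 0.05 the 19 lower members became 5 to 21 when a library was left out. Shares of all genes were counted without WT replicate 4, 4.45% lower and 5.63% higher, and with trend removal, 9.94% lower and 6.12% higher. They were not counted in the other alternatives. The 1 higher member became 0 with RLE scaling, no filter, or trend removal, and 0 to 1 when a library was left out. The cause was not tested. Psmc1, Psme3 and Psmf1 changed sign without WT replicate 4, and over the left-out libraries ranged from -0.060 to 0.25, from -0.020 to 0.12 and from -0.075 to 0.17 on the log2 scale. Psmf1 (-0.077) and Psmd1 (-0.054) changed sign with the trend removed. These are the members named by rule. Over all 44, 5 changed sign without WT replicate 4 and 7 with the trend removed, among them Psme4 at -0.17. Of 32 named genes, 9 passed the threshold with DESeq2, beside 2.92% of all genes lower in DKO and 1.44% higher. Many named genes were chosen for a small p or an extreme fold change in these data, which raises that count. The median of genes of like length was -0.086 with quintiles and -0.13 with the longest transcript. The difference in Hs3st3a1 was between -1.05 and -0.586 CPM when a library was left out.

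The deviations of same-numbered libraries had correlations of -0.13, 0.16 and 0.14 for numbers 1, 2 and 4. Those of differently numbered libraries ran from -0.23 to 0.16. These values do not settle whether the numbers mark pairs, and the main fit did not use them as pairs. With the replicate block 12 members were lower and 0 higher at an unadjusted p under 0.05, 0 were called, and Psmc3ip was at 0.62. The share of all genes at that level was not counted with the block. Depth kept Psma8 out of the test.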
